A study of Homo sapiens with 12 samples.

Results

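Mucins are long glycoproteins whose repeats of serine and threonine carry dense O-linked sugar chains. Membrane mucins span the cell surface, signal through short cytoplasmic tails and are shed by proteases, whereas secreted mucins are released and form gels. In pancreatic cancer, MUC1, MUC4 and MUC16 are known as surface antigens of the tumor cells, and the antigen CA125 measured in serum is a shed part of MUC16. The genes described here are 8 members of this family, namely the membrane mucins MUC1, MUC4, MUC13, MUC15, MUC16 and MUC20 and the secreted, gel-forming mucins MUC5AC and MUC5B. They were taken by gene symbol from a table of 23284 genes, and they were selected on FPKM values of these same libraries, among them the higher level in degron (++) cells and the fall of MUC16 with 4 Gy. For this reason, the differences of these genes between the populations, and every difference of MUC16, are given as a description with no test. The files used here listed 7 of the 8 genes, and MUC5AC was not analysed here.

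The libraries came from PANC-1, an established human pancreatic ductal cancer line, carrying by retrovirus the fluorescent protein ZsGreen fused to the degron of ornithine decarboxylase, which accumulates where proteasome activity is low. Degron (−) cells are the infected line, in which few cells are fluorescent; degron (++) cells are the brightest part of a population that had been enriched by repeated sorting and culture, so the reporter level and this history of sorting cannot be told apart. Each population was sequenced without irradiation (0 Gy) at 48 h, with 4 Gy at 30 h and with 4 Gy at 48 h, with 2 libraries in each of the 6 groups. The starting point of the hours is not given in the labels, and the 6 libraries taken as degron (−) are ZsGreen-negative by title but d+ by description. Nothing in the labels says that the 2 libraries of a group came from separate cultures, so p-values measure only the spread between these libraries, which may be technical. Values are FPKM, fragments per kilobase of transcript scaled to the mapped fragments of the library, as the authors deposited them. FPKM are scaled to length, but the annotation that gave the lengths is not named, so comparisons of levels between genes are approximate. In such bulk RNA, fewer cells that express a gene and less of its RNA per cell cannot be told apart.

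No counts were used, and the depth is unknown; by the steps between low FPKM values, the relative depth of the 12 libraries ran from 0.868 to 1.17. By the transcripts of GENCODE v29, 1 FPKM corresponds to 43.8 fragments per 1000000 mapped for the longest coding transcript of MUC16, 17.1 for MUC4 and 17.9 for MUC5B, but to 4.17 for MUC1 and 2.84 for MUC20, so that a low FPKM rests on more fragments for the long mucins. MUC20 has near-identical pseudogene copies, between which the authors' counting could split reads, and its values are uncertain for that reason. The epithelial markers EPCAM, CDH1, KRT7, KRT8, KRT18 and KRT19 were all expressed, with a summed level of 7184 to 8369 FPKM in degron (++) and 4226 to 5137 FPKM in degron (−) libraries. Endothelial markers (4 of 4) and pancreatic acinar and islet markers (5 of 5) were under 1 FPKM in every library. Of the fibroblast and blood cell markers, COL1A1 (36.5 to 52.3 FPKM) was high in degron (−) and at 0.531 to 0.826 FPKM in degron (++), whereas LUM was at 13.8 to 24.7 FPKM in degron (++) and at 0.290 to 1.61 FPKM in degron (−). CD68 held nearly all of the blood cell sum in degron (−), at 124 to 165 FPKM against 2.91 to 4.62 FPKM in degron (++), and CD14 was at 0.187 to 1.02 FPKM in degron (−) and 1.45 to 1.92 FPKM in degron (++). The fibroblast list summed to 14.5 to 25.4 FPKM in degron (++) and to 37.2 to 53.9 FPKM in degron (−), the blood cell list to 4.70 to 6.67 and to 125 to 165 FPKM, and 5 and 4 of the 6 fibroblast markers, and 4 and 4 of the 6 blood cell markers, stayed under 1 FPKM in every library of the respective population. The part of these levels in the mucin results was not tested.

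The promoters of the 3 membrane mucins on which most results turn are shown to let their control regions be compared. RefSeq (GRCh38.p14) gave a promoter for 4 of the 8 genes, MUC1, MUC4, MUC13 and MUC16. The 250 bases before the start are printed 5′ to 3′ on the strand of the gene, which is the minus strand in each case, at chr1:155192916-155193165 for MUC1, chr3:195811930-195812179 for MUC4 and chr19:9065752-9066001 for MUC16 (for MUC1 and MUC16 the first of 2 windows). Capitals mark matches, on either strand, to an E-box bound by ZEB and SNAI factors (CAGGTG), a GC box (GGGCGG), the core of ETS factor sites (GGAAG) and a TATA box (TATAAA).
MUC1: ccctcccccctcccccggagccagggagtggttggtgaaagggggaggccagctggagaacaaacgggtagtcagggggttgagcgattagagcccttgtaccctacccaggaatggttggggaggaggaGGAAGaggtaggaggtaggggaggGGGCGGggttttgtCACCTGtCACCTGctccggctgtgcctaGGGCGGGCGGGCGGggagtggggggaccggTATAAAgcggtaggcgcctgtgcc
MUC4: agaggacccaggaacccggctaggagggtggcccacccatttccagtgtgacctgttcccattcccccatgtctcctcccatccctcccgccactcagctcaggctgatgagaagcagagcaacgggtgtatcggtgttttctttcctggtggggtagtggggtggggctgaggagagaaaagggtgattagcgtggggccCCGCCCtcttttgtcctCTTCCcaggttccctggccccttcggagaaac
MUC16: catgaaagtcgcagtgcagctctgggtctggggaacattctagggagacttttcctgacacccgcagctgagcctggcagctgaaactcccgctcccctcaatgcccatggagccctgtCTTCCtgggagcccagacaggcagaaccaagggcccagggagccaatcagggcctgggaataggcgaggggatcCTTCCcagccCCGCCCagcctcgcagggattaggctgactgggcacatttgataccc
The MUC1 window held 2 E-boxes, 4 GC boxes of which 3 overlap, 1 ETS core and 1 TATA box that begins 24 bases before the start. The MUC4 window held 1 GC box and 1 ETS core, and the MUC16 window 1 GC box and 2 ETS cores. Among 35116 RefSeq promoters cut to the same 250 bases, 17.5% held the E-box, 42.6% the GC box, 65.1% the ETS core and 10.7% the TATA box. GC content was 66.0% for MUC1, 60.4% for MUC4 and 61.6% for MUC16.

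At a level that could be followed, 5 mucins were measured (MUC1, MUC4, MUC16, MUC20 and MUC5B), and each was higher in degron (++) than in degron (−) cells in each of the 3 conditions, with no overlap between the libraries. The share of all genes without overlap was not determined, and the shares of limma calls given below are a different measure. MUC1 held 68.2% to 73.6% of the summed FPKM of the 7 listed genes in degron (++) groups and 86.5% to 91.3% in degron (−) groups. The summed level was 38.0 to 61.2 FPKM in degron (++) libraries and 12.8 to 22.0 FPKM in degron (−) libraries. As a background, limma called 77.7% of 12946 tested genes between the populations at 0 Gy and 48 h, with 37.6% of all tested genes higher in degron (++). At 4 Gy and 30 h the shares were 79.1% and 38.3%, and at 4 Gy and 48 h 76.7% and 37.1%. Higher levels in degron (++) were thus common, and no test is drawn from the mucins' direction.

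MUC1 encodes the membrane mucin of most glandular epithelia, with a tail that binds beta-catenin and EGFR family members. In unirradiated degron (++) cells, it was at 40.7 and 42.3 FPKM, against 13.3 and 13.8 FPKM in degron (−). With 4 Gy, it was at 29.8 and 27.1 FPKM at 30 h and 42.5 and 43.4 FPKM at 48 h in degron (++), and at 14.1 and 11.6 FPKM and 16.1 and 19.1 FPKM in degron (−). The lowest degron (++) library was above the highest degron (−) library. The ratio of means was 3.07 without irradiation, 2.21 with 4 Gy at 30 h and 2.44 with 4 Gy at 48 h.

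MUC4 encodes a membrane mucin that binds ERBB2. It was at 9.59 and 10.9 FPKM in unirradiated degron (++), at 8.92 and 6.96 FPKM with 4 Gy at 30 h and at 10.1 and 9.81 FPKM with 4 Gy at 48 h. In degron (−), the values in the same order were 1.56 and 1.43, 0.994 and 0.897, and 1.61 and 2.03 FPKM. The ratios of means were 6.85, 8.39 and 5.46.

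MUC16, which carries the CA125 antigen and binds mesothelin, had the largest ratio of the 5 genes in the unirradiated comparison. It was at 7.87 and 5.90 FPKM in unirradiated degron (++), against 0.368 and 0.317 FPKM in degron (−), a ratio of 20.1. By its log2 difference of FPKM + 1 (2.54), it stood at rank 132 of the 12946 tested genes. With 4 Gy at 30 h, the libraries were at 3.93 and 2.91 FPKM in degron (++) and at 0.177 and 0.198 FPKM in degron (−), with a ratio of 18.2. With 4 Gy at 48 h, they were at 3.52 and 3.81 FPKM against 0.417 and 0.536 FPKM, and the ratio was 7.69. The smaller ratio with 4 Gy at 48 h went with both a lower level in degron (++) and a higher level in degron (−) than without irradiation.

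MUC20 encodes a small membrane mucin that binds the receptor MET and lies beside MUC4 on chromosome 3. It was at 1.41 and 1.10 FPKM, 0.725 and 0.745 FPKM, and 1.24 and 1.52 FPKM in degron (++) at 0 Gy and 48 h, 4 Gy and 30 h, and 4 Gy and 48 h. In degron (−), the values were 0.082 and 0.071, 0.040 and 0.028, and 0.114 and 0.179 FPKM. The ratios were 16.4, 21.6 and 9.43, with the denominators all under 0.2 FPKM.

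MUC5B encodes a gel-forming mucin of airway and gland secretions, and it was the secreted member that could be followed. It was at 0.910 and 0.955 FPKM in unirradiated degron (++), at 0.256 and 0.266 FPKM with 4 Gy at 30 h and at 0.325 and 0.454 FPKM with 4 Gy at 48 h. In degron (−), it was at 0.200 and 0.159, 0.040 and 0.047, and 0.076 and 0.095 FPKM, and the ratios were 5.19, 6.0 and 4.56. MUC13 and MUC15 encode membrane mucins that were at the floor of the data. MUC13 was at 0 to 0.032 FPKM in degron (++) and 0 to 0.106 FPKM in degron (−), with 3 and 4 of the 6 libraries listed at 0. MUC15 was at 0 to 0.028 FPKM in both populations, with 5 and 3 libraries listed at 0, so no ratio is given for either gene.

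**Figure D1:**
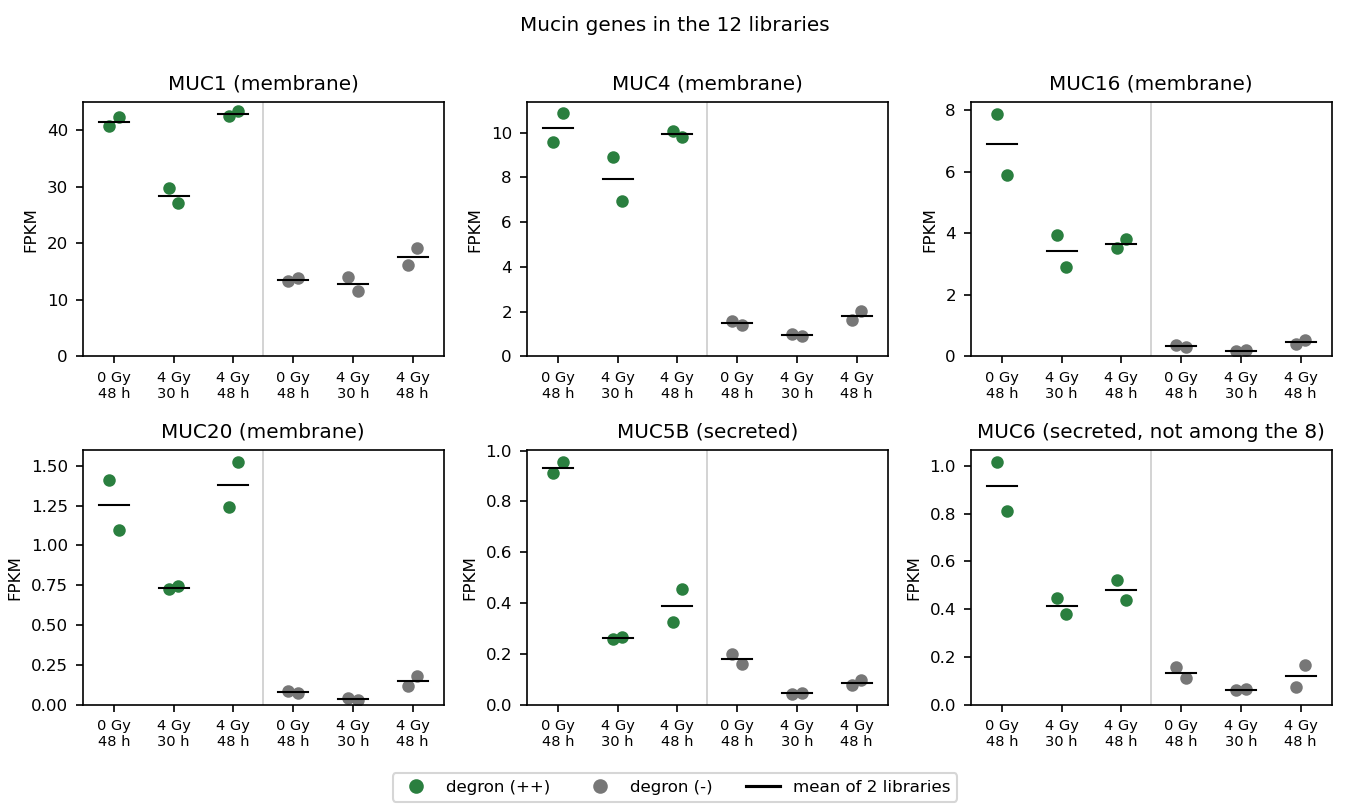
FPKM (vertical axes, each from 0) of MUC1, MUC4, MUC16, MUC20, MUC5B and MUC6 in the 12 libraries, grouped along the horizontal axis by population, dose and time, with points for libraries and bars for the mean of 2 libraries. Every degron (++) library lies above every degron (−) library for each gene, and MUC16, MUC5B and MUC6 are highest in unirradiated degron (++) cells, at means of 6.88, 0.933 and 0.914 FPKM. MUC6 is not a member and was named after its values were seen.

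Within a library, the order of the members by FPKM was MUC1, MUC4, MUC16, MUC20 and MUC5B in all 3 degron (++) groups. The closest neighbours in unirradiated degron (++) were MUC20 (1.10 to 1.41 FPKM) and MUC5B (0.910 to 0.955 FPKM), which did not overlap. In degron (−), the first 3 places were the same, but MUC5B was above MUC20 without irradiation (0.159 to 0.200 against 0.071 to 0.082 FPKM) and below it with 4 Gy at 48 h (0.076 to 0.095 against 0.114 to 0.179 FPKM). With 4 Gy at 30 h, these 2 genes met at 0.040 FPKM and could not be ordered.

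A filter of at least 1 FPKM in at least 2 libraries was used for the tests, and 4 of the 8 genes passed it: MUC1, MUC4, MUC16 and MUC20. MUC16 and MUC20 passed only through degron (++), where they are high. MUC20 reached 1.52 FPKM, just inside the limit, and MUC5B reached 0.955 FPKM, just outside it. Tests of dose and time are therefore given for MUC1 and MUC4, and for MUC5B only from fits with a lower filter. For MUC20, a test is given only for dose in degron (++), where all 4 libraries compared were above 1 FPKM, and its other differences are a description.

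With 4 Gy at 48 h in degron (++) cells, MUC16 and MUC5B had lower means than without irradiation, while the means of MUC1, MUC4 and MUC20 were 97.2% to 110% of the unirradiated means. MUC16 went from a mean of 6.88 ± 1.39 FPKM (SD, n = 2) to 3.66 ± 0.206 FPKM (SD, n = 2), a ratio of 0.532, and both irradiated libraries were below both unirradiated libraries. The difference was -0.75 on the log2(FPKM + 1) scale, and it ran from -0.93 to -0.57 when 1 library of these groups was left out. It was among the 55 lowest of the 12946 tested genes, of which limma called 1.82% for dose in degron (++). MUC16 was chosen for this fall, so its rank is a description. With no overlap between the groups, the sign could not change when 1 library was left out. The share of all genes without overlap for dose was not determined. MUC5B went from 0.933 ± 0.0318 FPKM to 0.390 ± 0.0912 FPKM (SD, n = 2 each), a ratio of 0.418. Without the filter on low values, its log2 difference was -0.48 (SE 0.0446, limma, adjusted p = 0.00992), but with a filter at 0.1 FPKM and a pseudocount of 0.1, chosen after the data were seen, it was -1.09 (SE 0.207) and limma's adjusted p was 0.0518.

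MUC1, MUC4 and MUC20 gave no call for dose in degron (++). For MUC1, the log2 difference was 0.05, with a 95% interval from -0.17 to 0.27 (limma, adjusted p = 0.869), and its sign changed when FPKM were rescaled to a common sum. For MUC4, it was -0.03, with an interval from -0.30 to 0.23 (limma, adjusted p = 0.929). For MUC20, it was 0.08, with an interval from -0.14 to 0.30 (limma, adjusted p = 0.733). These intervals do not show that the levels were equal.

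In degron (−) cells, the means of 4 membrane mucins were higher and that of MUC5B was lower with 4 Gy than without at 48 h, and MUC1, MUC4 and MUC5B, the genes tested here, were not called. Of all tested genes, 4.73% were called for dose in degron (−). MUC1 went from 13.5 to 17.6 FPKM in the mean (log2 difference 0.35, interval 0.13 to 0.57, limma, adjusted p = 0.079). MUC4 went from 1.49 to 1.82 FPKM (0.17, limma, adjusted p = 0.440) and MUC20 from 0.0765 to 0.147 FPKM (0.09, not tested, with a sign that changed with quantile normalization). MUC16 went from 0.343 to 0.477 FPKM with no overlap between the libraries (log2 difference 0.14), the opposite direction to degron (++). Here too, the share of all genes without overlap was not determined. MUC5B went from 0.180 to 0.0855 FPKM, a ratio of 0.476 beside 0.418 in degron (++) (log2 difference -0.12, limma without the filter, adjusted p = 0.221; with the filter at 0.1 FPKM and the pseudocount of 0.1, log2 difference -0.59 and adjusted p = 0.182).

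The difference of the dose effects between the populations was called for 0.0772% of the tested genes, 10 genes in all. It was -0.31 for MUC1 (interval -0.62 to 0.01, limma, adjusted p = 0.374) and -0.21 for MUC4 (adjusted p = 0.611). For MUC16 the difference was -0.88 and for MUC20 -0.01, the latter with a sign that changed with quantile normalization, and neither was tested. For MUC5B, it was -0.36 without the filter on low values (limma, adjusted p = 0.108) and -0.50 with the filter at 0.1 FPKM and the pseudocount of 0.1 (adjusted p = 0.543).

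**Figure D2:**
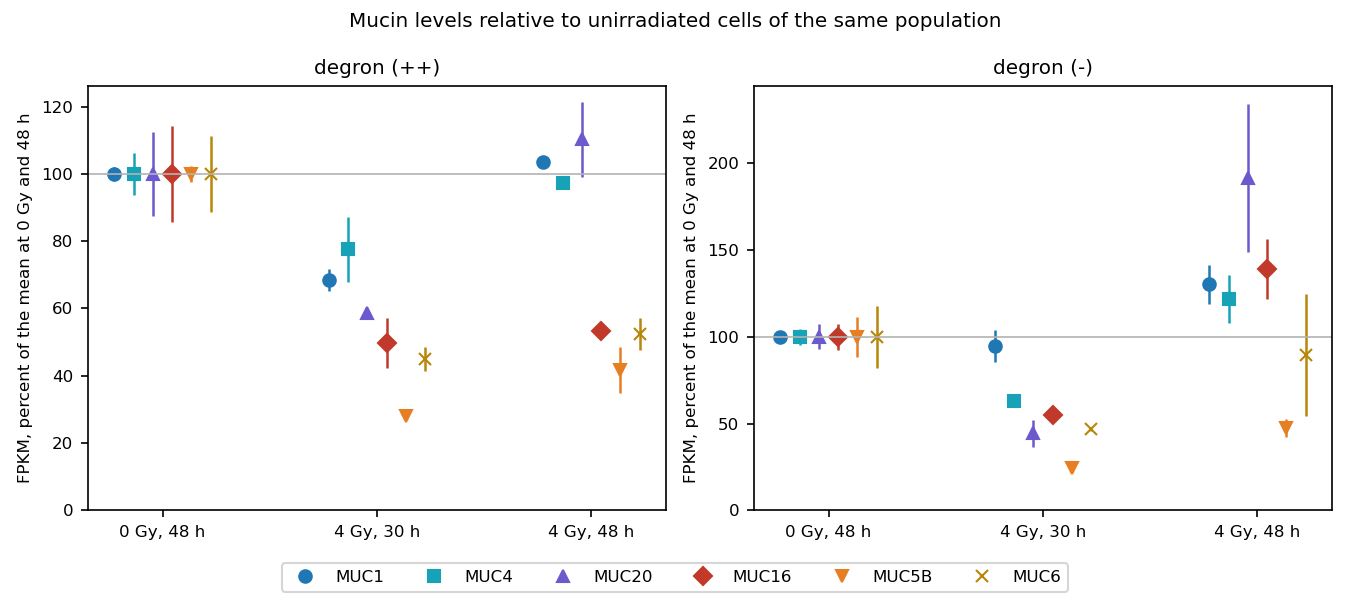
FPKM as a percent of the mean of the unirradiated libraries of the same population (vertical axes) for 6 mucins in 3 conditions (horizontal axis), with degron (++) on the left and degron (−) on the right. Symbols are means of 2 libraries and vertical lines join the 2 libraries. In degron (++) cells with 4 Gy at 48 h, MUC16, MUC5B and MUC6 stand at 53.2%, 41.8% and 52.4%, and MUC1, MUC4 and MUC20 at 103%, 97.2% and 110%. MUC6 is not a member and was named after its values were seen.

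Irradiated cells were compared between 30 h and 48 h. All 5 members had a higher mean at 48 h than at 30 h in both populations, and the libraries overlapped only for MUC16 in degron (++). How many of all genes lacked overlap in this way was not determined, so the lack of overlap is no result about the mucins. Of all tested genes, 1.21% were called for time in degron (++) and 7.18% in degron (−). In degron (++), MUC1 rose from 28.4 to 42.9 FPKM (log2 difference 0.58, SE 0.0967, limma, adjusted p = 0.0356). MUC4 went from 7.94 to 9.95 FPKM (0.30, limma, adjusted p = 0.256) and was not called. MUC20 went from 0.735 to 1.38 FPKM (0.45, not tested). MUC16 went from 3.42 to 3.66 FPKM, and the sign of this difference changed when degron (++) 4 Gy 30 h replicate 2 was left out. MUC5B went from 0.261 to 0.390 FPKM (0.14, limma without the filter, adjusted p = 0.24).

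In degron (−), MUC1 rose from 12.8 to 17.6 FPKM (log2 difference 0.43, SE 0.0967, limma, adjusted p = 0.0337) and MUC4 from 0.946 to 1.82 FPKM (0.53, SE 0.115, limma, adjusted p = 0.0292). MUC20 went from 0.034 to 0.147 FPKM, a ratio of 4.31 that rests on values close to 0 (log2 difference 0.15, not tested, with a sign that changed with quantile normalization). MUC16 went from 0.188 to 0.477 FPKM, a ratio of 2.54. MUC5B went from 0.0435 to 0.0855 FPKM (0.06, limma without the filter, adjusted p = 0.576).

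The calls for time were close to the threshold. That of MUC1 in degron (++) was lost without each of the 4 libraries compared (limma, adjusted p 0.102 to 0.176) and in 6 of 10 other settings, and that of MUC1 in degron (−) without degron (−) 4 Gy 30 h replicate 2 or 4 Gy 48 h replicate 2 and in 4 of 10 settings. That of MUC4 in degron (−) was lost without 4 Gy 30 h replicate 1, 4 Gy 30 h replicate 2 or 4 Gy 48 h replicate 2 (highest adjusted p 0.197) and in 2 of 10 settings. The epithelial markers EPCAM, CDH1 and KRT7 moved with these rises in degron (−), where EPCAM was at 29.9 to 31.9 FPKM at 30 h and 44.8 to 52.8 FPKM at 48 h, CDH1 at 6.56 to 6.79 and 11.7 to 12.8 FPKM, and KRT7 at 133 to 144 and 233 to 273 FPKM. Of the 6 epithelial markers, these 3 were called higher at 48 h than at 30 h, and also with 4 Gy than without at 48 h, and their part in the mucin values was not tested. The fibroblast marker LUM was also called higher at 48 h than at 30 h in both populations, at 21.8 to 22.4 against 13.8 to 14.3 FPKM in degron (++) and 1.23 to 1.61 against 0.290 to 0.567 FPKM in degron (−), and its part was not tested.

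The time effects of MUC1 and MUC4 were not shown to differ between the populations. The difference of the time effects was called for 3.23% of the tested genes, and it was 0.15 for MUC1 (interval -0.16 to 0.46, limma, adjusted p = 0.625) and -0.23 for MUC4 (interval -0.60 to 0.14, limma, adjusted p = 0.516). For MUC20 it was 0.31 and was not tested, and its sign changed with a pseudocount of 0.1. Unirradiated cells were sampled at 48 h alone, so the level at 30 h without irradiation is not known, and the values at 4 Gy and 30 h differ from those at 0 Gy in both dose and time. Side by side, MUC5B at 4 Gy and 30 h stood at 28.0% of its unirradiated mean in degron (++) and 24.2% in degron (−), MUC16 at 49.7% and 54.7%, MUC20 at 58.6% and 44.4%, MUC4 at 77.6% and 63.3%, and MUC1 at 68.5% and 94.9%.

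Among 14 other mucin genes, 11 were listed and 1 passed the filter. This was CD164, a small sialomucin of intracellular vesicles, which was lower in degron (++) than in degron (−) without irradiation (50.7 and 52.7 against 130 and 133 FPKM, log2 fold change -1.33, limma, adjusted p = 2.95e-09). MUC6, a secreted gel-forming mucin whose gene lies in the same cluster as MUC5B, reached 1.02 FPKM in 1 library. Its values in degron (++) were 1.02 and 0.811 FPKM without irradiation, 0.445 and 0.378 FPKM with 4 Gy at 30 h and 0.522 and 0.436 FPKM with 4 Gy at 48 h, a fall in the mean to 52.4% at 48 h. On the log2(FPKM + 1) scale, the dose difference of MUC6 in degron (++) at 48 h was -0.37. MUC6 was named after its values were seen, so its fall is a description with no test and lends no support to that of the members. MUC12, a membrane mucin, ran the other way between the populations, at 0.005 to 0.030 FPKM in degron (++) and 0.064 to 0.162 FPKM in degron (−). The secreted intestinal mucin MUC2 stayed at or below 0.040 FPKM, and MUC7, MUC22, MUCL1 and EMCN were listed at 0 in all 12 libraries.

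The other genes of mucin biology were taken from 7 lists with 88 gene symbols, 82 of them listed and 52 tested. GALNTL1, GALNTL2 and GALNTL4 were also entered under their newer symbols GALNT16, GALNT15 and GALNT18, so the number of genes is smaller than that of symbols. At 0 Gy and 48 h, 31 were higher and 17 lower in degron (++) than in degron (−), and 4 were not called. Over all 12946 tested genes, 77.7% were called, with 4864 higher and 5198 lower. The median log2 fold change was 0.49, beside -0.02 over all tested genes. The lists were chosen with earlier results of these data known, so the counts here and per list are a description. When FPKM were rescaled to a common sum (TPM), the median of all tested genes moved to -0.21, and 35.9% of the calls were higher in degron (++) in place of 48.3%, and this sum was higher in degron (++). No named gene called at 0 Gy changed its direction with this scaling. Among the list genes, GALNT14, GALNTL1, GALNTL4, B3GNT6, SPDEF, FOXA2, CDX2 and MMP7 passed the filter only through degron (−). GALNT9, GCNT1, GCNT4, FOXA1 and EHF passed it only through degron (++). Each passed through the population where it was higher, so these calls and their part in the counts are not independent of the filter.

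The enzymes that start O-linked chains, the GALNT family, were divided. Of 13 tested, 4 were higher and 7 lower in degron (++), with a median log2 fold change of -0.67. GALNT3 was at 38.2 and 36.8 FPKM in unirradiated degron (++) and at 6.75 and 5.95 FPKM in degron (−) (log2 fold change 2.39, SE 0.0873, limma, adjusted p = 2.01e-08), and GALNT9 (1.0) and GALNT6 (0.96) were also higher. GALNTL4, at 0.329 and 0.142 against 13.8 and 13.4 FPKM (-3.57), GALNT1 (-1.38) and GALNT11 (-1.35) were lower. Of the 6 enzymes that build or extend the cores, 4 were higher and 1 lower. B3GNT3, which extends core 1, was at 17.4 and 16.6 against 3.57 and 3.57 FPKM (1.98, limma, adjusted p = 1.35e-07), GCNT1, which makes core 2, at 3.49 and 3.72 against 0.437 and 0.324 FPKM (1.74), and GCNT4 had a log2 fold change of 0.51. B3GNT6, which makes core 3, was lower (-1.48), and C1GALT1, the core 1 synthase, was not called (-0.04, limma, adjusted p = 0.633). Of the 3 sialyltransferases tested, ST3GAL1 (1.58) and ST6GALNAC4 (0.53) were higher and ST3GAL2 (-2.54) was lower.

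Of 5 tested genes of mucous cells, 3 were higher and 2 lower in degron (++). The trefoil peptides TFF1 (8.91 and 7.81 against 1.16 and 2.11 FPKM, log2 fold change 1.85) and TFF2 (1.23) were higher, and so was ZG16B (0.81). AGR2, a disulfide isomerase of mucin-producing cells, was at 23.5 and 24.3 FPKM in degron (++) and 109 and 113 FPKM in degron (−) (-2.17, limma, adjusted p = 2.65e-09), and SPDEF, a factor of mucous cell differentiation, was lower too (-1.43). Of the 12 genes for binding partners and sheddases, 11 were higher and 1 lower, with a median log2 fold change of 1.08. Over all tested genes, 37.6% were higher in degron (++). ST14, the protease matriptase, stood at 2.42, LGALS3BP, a galectin-3-binding protein, at 2.26, the membrane protease MMP14 at 2.15, ERBB2, the partner of MUC4, at 1.92 and mesothelin (MSLN), the partner of MUC16, at 1.82; MMP7 was lower (-0.68). Of the 12 transcription factors with reported roles in mucin genes, 7 were higher and 4 lower. ELF3 (3.41), KLF5 (2.66) and KLF4 (1.39) were furthest above 0, and FOXA2 (-3.92), GATA4 (-1.54) and CDX2 (-1.51) furthest below. ELF3 was at 93.1 and 86.3 FPKM against 8.14 and 7.01 FPKM, and FOXA2 at 0.689 and 0.448 FPKM against 22.5 and 23.0 FPKM.

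**Figure D3:**
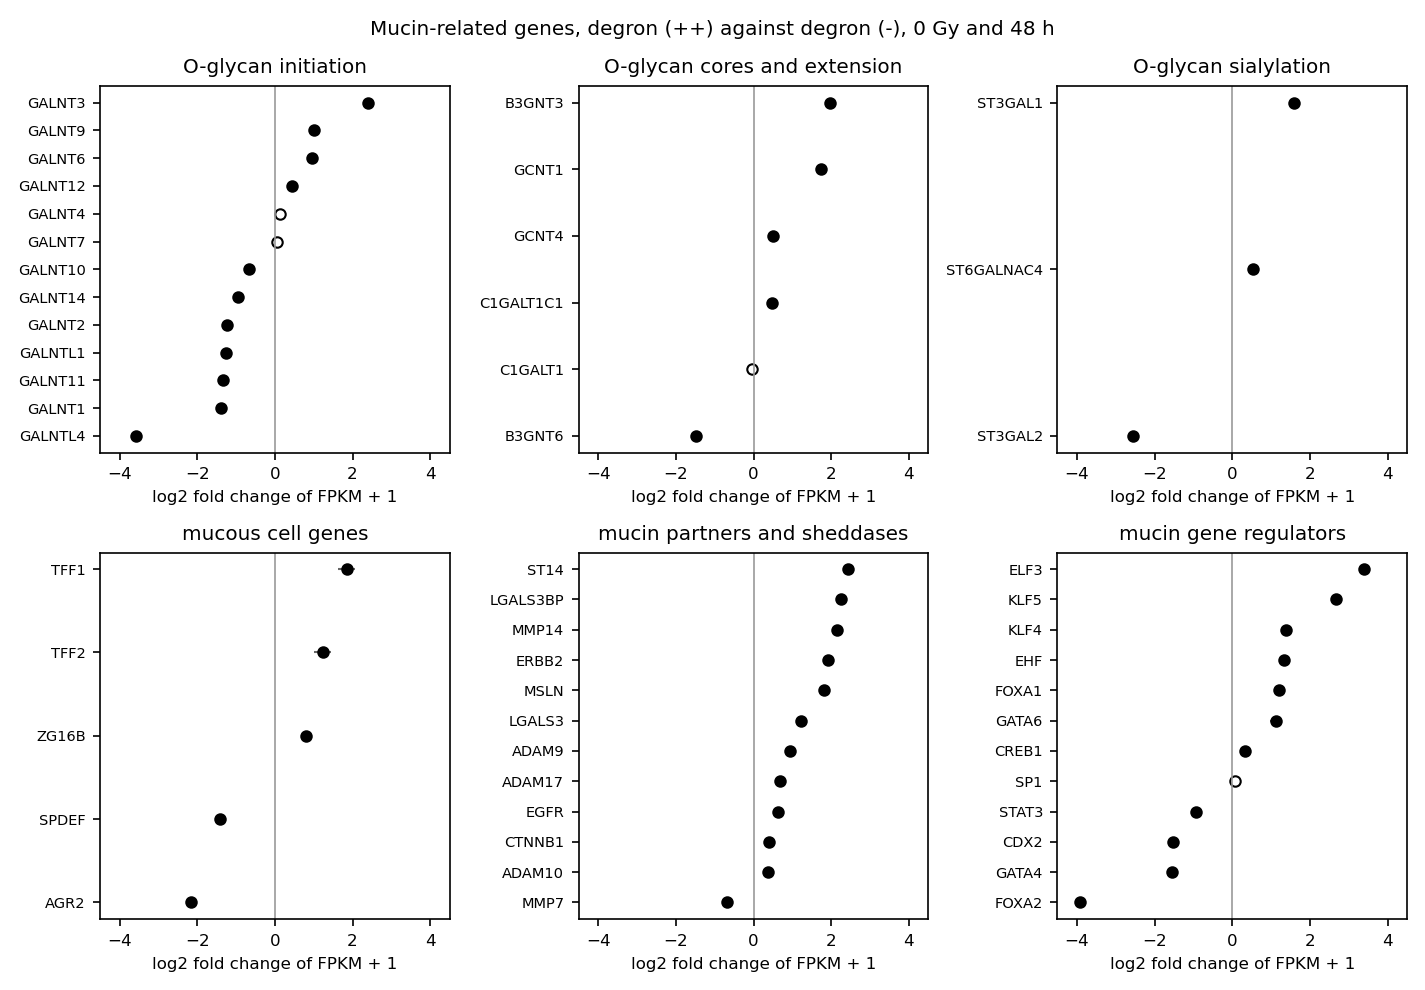
Log2 fold change of FPKM + 1 (horizontal axes, positive where higher in degron (++)) of the tested genes of 6 lists at 0 Gy and 48 h, with limma's standard error as a line where it exceeds the symbol, filled symbols for genes past an adjusted p of 0.05 and open symbols for the others. Partners and sheddases lie to the right of 0 except MMP7, and the GALNT family is spread from -3.57 (GALNTL4) to 2.39 (GALNT3).

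For dose in degron (++) cells, 3 of these 52 genes were called, beside 1.82% of all tested genes. At 48 h, ST3GAL1 (log2 fold change 0.29, limma, adjusted p = 0.0358) and MMP14 (0.38, adjusted p = 0.0356) were higher with 4 Gy and GALNT10 was lower (-0.34, adjusted p = 0.0201), which was at 17.6 and 18.4 FPKM with and 22.9 and 23.0 FPKM without irradiation. All 3 calls were lost without any 1 of the 4 libraries. Over all tested genes, 184 were higher and 52 lower with 4 Gy in degron (++), 78.0% of the calls being higher, or 59.6% with TPM rescaling. In degron (−) cells, 11 of the 52 were higher with 4 Gy and none lower, beside 499 higher and 113 lower over all tested genes. Among the 11 were ZG16B (0.69), MMP7 (0.64), ST14 (0.55), KLF4 (0.52), MMP14 (0.49), EHF (0.45), B3GNT3 (0.42), ST3GAL1 (0.41) and AGR2 (0.34). MMP7 passed the filter only through irradiated degron (−) libraries (1.04 to 1.68 FPKM, beside 0.632 and 0.562 FPKM without irradiation). Its call is therefore not independent of the filter. EHF passed only through degron (++), and in degron (−) at 48 h it was at 0.127 and 0.309 FPKM without and 0.610 and 0.716 FPKM with 4 Gy. Without degron (−) 4 Gy 48 h replicate 2, or without degron (−) 0 Gy 48 h replicate 2, 1 call was left. From 30 h to 48 h at 4 Gy, 12 rose and 1 fell in degron (−), beside 778 that rose and 152 that fell over all tested genes. Of these calls over all genes 83.7% were rises, or 72.5% with quantile normalization and 95.1% with TPM rescaling without MIR622. ELF3 (1.35), TFF1 (1.17), ST14 (0.90), KLF5 (0.76), B3GNT3 (0.75), GALNT3 (0.74), MSLN (0.73), LGALS3BP (0.73), KLF4 (0.72) and ST3GAL1 (0.40) rose and GALNT2 fell (-0.21). The median over the 52 genes was 0.08, beside 0.00 over all tested genes. In degron (++), AGR2 (0.47, limma, adjusted p = 0.0117) was the 1 gene called, and the call was lost without 4 Gy 30 h replicate 2 or 4 Gy 48 h replicate 2. The epithelial markers EPCAM, CDH1 and KRT7 moved with the rises in degron (−), as given above. The time effect differed between the populations for 9 of the 52 genes, 8 of them with a lower value in degron (++), beside 352 of 418 called genes over the whole table.

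The 3 nearest tested genes on each side, by the order of RefSeq, gave 36 genes, of which 8 were higher and 18 lower in unirradiated degron (++) and 10 were not called, with a median log2 fold change of -0.19. Over all 12946 tested genes, 4864 were higher and 5198 lower, and the median was -0.02. Around MUC16, HNRNPM (0.24) and ZNF559 (0.52) were higher, ZNF558 (-1.02) was lower and the other 3 were not called. Around MUC1, TRIM46 (-1.27) and THBS3 (-1.21), its nearest tested neighbours, were lower. Beside MUC4 and MUC20, 1 of 6 was higher and 4 were lower, and at the cluster of MUC5AC and MUC5B 5 of 6 were lower, among them BRSK2 (-2.91) and TOLLIP (-1.29). For dose in degron (++), none of the 6 genes beside MUC16 was called, while THBS3, beside MUC1, fell (-0.50, limma, adjusted p = 0.0217).

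The 5 genes whose profile was most like that of MUC16 were found by the root mean square difference of log2(FPKM + 1), each centred on its own mean, over the 12 libraries. They were SCNN1A, a subunit of the epithelial sodium channel (0.185), FAM78A (0.185), ALDH3B1, an aldehyde dehydrogenase (0.194), METTL7A (0.194) and TMC4 (0.206), beside a median of 1.08 over all tested genes. The means of all 5 were higher in degron (++) than in degron (−), as were those of MUC16. How much of the likeness rests on this step between the populations was not determined. The dose groups were part of this choice, so a like pattern across them is no added result. In degron (++) at 48 h, SCNN1A was at means of 22.9 FPKM without and 18.6 FPKM with 4 Gy, and FAM78A at 11.6 and 8.38 FPKM. In the same order, ALDH3B1 was at 40.7 and 28.8 FPKM, METTL7A at 5.46 and 4.29 FPKM and TMC4 at 19.5 and 17.2 FPKM.

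**Figure D4:**
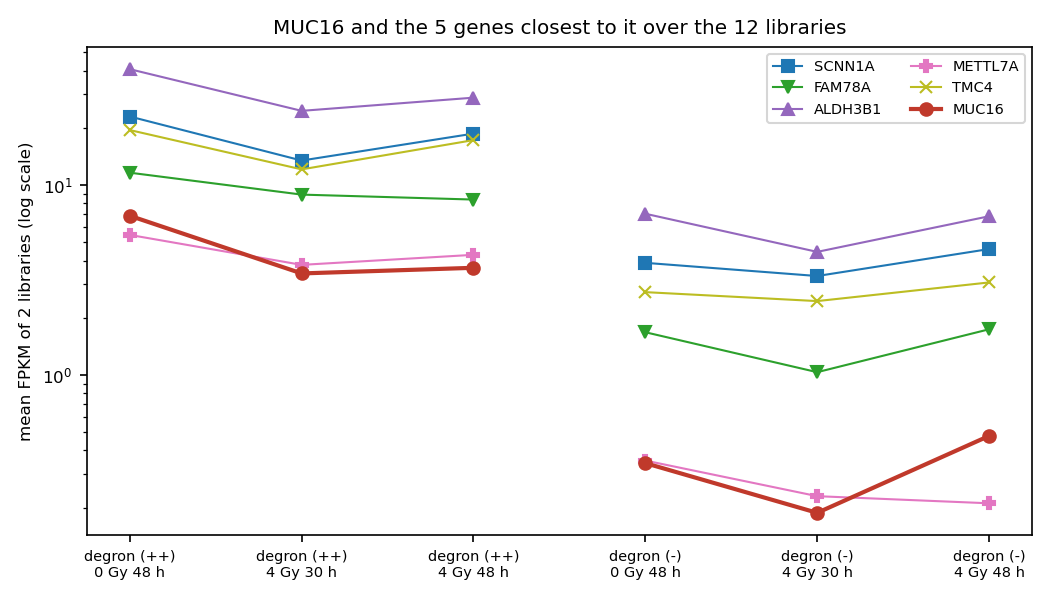
Mean FPKM of 2 libraries (vertical axis, log scale) of MUC16 and the 5 genes with the closest profile in the 6 groups (horizontal axis), with lines joining the groups of 1 population. All 6 genes are higher in degron (++), and MUC16 goes from 6.88 to 3.66 FPKM between 0 Gy and 4 Gy at 48 h in degron (++) and from 0.343 to 0.477 FPKM in degron (−).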

How the data were processed

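RNA was extracted with a total RNA kit and made into libraries with a stranded mRNA kit. FPKM values by gene symbol were deposited by the authors as 12 tables, 1 per library. The submitters' processing notes name TopHat2 2.1.1, Bowtie2 2.2.8, SAMtools 0.1.18, Cuffdiff 2.2.1 and the build hg19, without their roles, and the annotation is not given in the sources used here. Depth is unknown, and no counting interval is given. Summed over genes, degron (++) libraries held 829654 to 916877 FPKM (28.6% to 30.0% in MIR622) and degron (−) libraries 707273 to 763064 FPKM (22.5% to 27.1% in MIR622).

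The deposited FPKM were put on a log2(FPKM + 1) scale, and limma 3.58.1 was fitted (6 group means over all 12 libraries, eBayes with trend) in R 4.3.3 to 12946 genes with at least 1 FPKM in at least 2 libraries. Genes with a Benjamini-Hochberg adjusted p under 0.05 over all tested genes were called. A fold change on this scale understates the change of low genes. The fit was tested on simulated data.

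The members and lists were chosen with earlier results of these data known. Named genes are the members and, per list and comparison, up to 3 higher and 3 lower called genes with the largest fold change, the neighbours and the 5 genes closest to MUC16; C1GALT1, ERBB2 and MSLN at 0 Gy, the low mucins MUC2, MUC6, MUC7, MUC12, MUC22, MUCL1 and EMCN, and the single marker genes were named after their values were seen. GALNT14, GALNTL1 and FOXA1 were named only for how they passed the filter. Neighbours, promoters and lengths came from RefSeq GRCh38.p14 and GENCODE v29, and no coordinate was taken across to hg19. Python 3.11.15 with numpy 2.4.6, pandas 2.3.3, scipy 1.17.1 and matplotlib 3.10.9 was used.

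The alternatives were a pseudocount of 0.1, filters at 0 and 5 FPKM, rescaling to a sum of 1000000 (TPM), quantile normalization, a fit with no trend, a block for the replicate number, only the libraries compared and leaving out each library. A filter at 0.1 FPKM with a pseudocount of 0.1, and TPM without MIR622, were added after the data were seen.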

Additional observations from a re-analysis of the deposited data

Results flagged for a closer look

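The effect of 4 Gy at 48 h on MUC16 ran in opposite directions in the populations, -0.75 in degron (++) and 0.14 in degron (−) on the log2(FPKM + 1) scale. Irradiated and unirradiated libraries did not overlap in either population. How many of all genes lacked overlap in this way was not determined, so this is no result about MUC16. In degron (−), the levels were low, with means of 0.343 FPKM without and 0.477 FPKM with 4 Gy. The difference of -0.88 was not tested, since the gene was chosen for its fall with irradiation.

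The effect of time at 4 Gy differed between the populations, by limma's test of the difference, for 9 genes of the lists. The log2 difference of the effects was -0.65 for GALNT3 (adjusted p = 0.0308; 0.09 in degron (++) and 0.74 in degron (−)), -0.85 for B3GNT3 (adjusted p = 0.0197) and -0.58 for ST3GAL1 (adjusted p = 0.00862), which make O-linked sugar chains. It was -0.63 for MSLN (adjusted p = 0.0174), -0.69 for LGALS3BP (adjusted p = 0.0145) and -0.90 for ST14 (adjusted p = 0.00765) among the partners and sheddases. For the transcription factors, it was -0.99 for ELF3 (adjusted p = 0.0145; 0.36 and 1.35) and -0.78 for KLF4 (adjusted p = 0.0282). AGR2 went the other way, with a difference of 0.60 (adjusted p = 0.00988; 0.47 in degron (++) and -0.14 in degron (−)). Beside these, the epithelial markers EPCAM (-0.69), CDH1 (-0.76) and KRT7 (-0.96) had a called difference of the same sign as the 8 genes, and their part in it was not tested. Without 1 library the count of such list genes was 3 to 9; it was 3 without degron (++) 4 Gy 30 h replicate 1 or replicate 2, and 4 without degron (++) 4 Gy 48 h replicate 1 or degron (−) 4 Gy 30 h replicate 1.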

How the results depend on the processing

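Each of MUC1, MUC4, MUC16 and MUC20 was higher in degron (++) under every setting run for it (MUC20 did not pass the filter at 5 FPKM and has no value there). The genes were selected with this direction in these same libraries known, so it lends no support to the difference. The counts of all genes called between the populations stayed within 1.5 times. Fewer calls came from fits on only the libraries compared, which have fewer samples: 17 for dose and 12 for time in degron (++), 8 and 7 in degron (−), 6 and 128 for the differences of these effects, and 0 list genes for dose and for time in both populations. The replicate numbers gave no sign of pairing (correlations of -0.0381 to 0.122 over 15 pairs of groups), and with the replicate block 125 genes were called for dose and 88 for time in degron (++), 2 for the difference of dose effects and 1 list gene for dose in degron (++). TPM rescaling gave 57 for dose and 40 for time in degron (++), 341 and 611 in degron (−), 20 and 225 for the differences and 0 list genes for dose in degron (++); without MIR622 it gave 55 and 56 in degron (++), 29 for the difference of dose effects and 1 list gene for dose in degron (++). Quantile normalization gave 149 for dose in degron (++) and 35 for the difference of dose effects; eBayes without trend gave 128 for dose and 78 for time in degron (++); the pseudocount of 0.1 gave 17, and the filter at 5 FPKM 22, for the difference of dose effects; no filter gave 273 for that of time effects; and the pseudocount of 0.1, with either filter, gave 2 list genes for time in degron (++). The cause of these changes was not tested. The calls in the main setting were 236 and 156 in degron (++), 612 and 930 in degron (−), and 10 and 418 for the differences.

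Leaving out 1 library, the calls ran from 1 (without degron (++) 0 Gy 48 h replicate 1) to 36 for dose and 15 to 25 for time in degron (++), 115 to 364 and 281 to 665 in degron (−), and 0 to 18 and 67 to 379 for the differences. For the list genes they ran from 0 to 0 and 0 to 1 in degron (++), 1 to 7 and 10 to 12 in degron (−), and 0 to 1 and 3 to 9 for the differences. Only the settings without degron (−) 4 Gy 48 h replicate 1 kept the counts of time in degron (−) and of its difference within 1.5 times.

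Small differences of members changed sign. For dose in degron (++), MUC1 went to -0.0234 with TPM rescaling and -0.0162 without MIR622. Leaving out 1 library, MUC4 ran from -0.117 to 0.0475 (the latter without degron (++) 0 Gy 48 h replicate 2) and MUC20 from -0.0188 (without the same library) to 0.181 for dose in degron (++), MUC16 ran from -0.0811 (without 4 Gy 30 h replicate 2) to 0.253 for time in degron (++), and the difference of dose effects of MUC20 ran from -0.109 to 0.0903 (the latter without degron (++) 0 Gy 48 h replicate 1). With quantile normalization, MUC20 went to -0.0146 for dose and -0.0104 for time in degron (−), and to 0.0738 for the difference of dose effects. With the pseudocount of 0.1, under either filter, its difference of time effects was -0.0468.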
